A study of Rattus norvegicus with 23 samples.

Results

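The right and the left first lower molar of the same experimental rat were compared, gene by gene, across the whole array. Of the 23 arrays of the series, 10 entered: the right and left molars of 5 experimental male Wistar rats, which were 4 weeks old at the start of the study. Animals E1 and E3 were 31 days old, and animals E4, E5 and E7 were 43 days old. Arrays were paired by the numeral shared in their titles, and the experimental animal E2, of 31 days, was left out because only its right molar has an array here. The background was the same right-left difference in 12 arrays of 6 control male Wistar rats, C1 to C3 at 31 days and C4 to C6 at 43 days. The series title speaks of unopposed molars, teeth that have lost the tooth they bite against. The labels call both molars of an experimental animal experimental, do not say which side lost its opposing tooth, and name no other treatment, so neither side was taken as untreated. All differences are right minus left on the log2 scale, where 1 unit is a doubling.

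The periodontal ligament is the sheet of collagen fibres, fibroblasts, vessels and nerves that ties the cementum of a tooth root to the alveolar bone. Its cells renew collagen quickly, and cells along both hard surfaces can become cementoblasts or osteoblasts. Biting loads the ligament, and a tooth without an antagonist tends to erupt further while its socket is remodelled. The ligament was scraped from the roots of extracted teeth, so the sample can also carry gingival epithelium, blood, marrow, pulp and muscle. In such bulk tissue, fewer cells of a type and less RNA per cell cannot be told apart.

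Ligament markers were present in the 10 arrays. Postn, which encodes the matrix protein periostin, lay between 11.78 and 13.12. Col12a1, a collagen of fibre surfaces, lay between 10.88 and 12.47, and Aspn, the small proteoglycan asporin, between 10.16 and 12.42. Fmod reached 7.96 to 10.01. The transcription factors Scx (6.45 to 7.20) and Mkx (6.15 to 7.20) and the tendon membrane protein Tnmd (5.42 to 7.70) were near or below the middle of the array's genes. The array medians fell into a higher set of 6.50 to 6.77 and a lower set of 6.01 to 6.18, and both molars of an animal always lay in the same set. E1 and E3 were in the higher set and E4, E5 and E7 in the lower one, so set and age cannot be told apart in experimental animals. The 2 molars of an animal differed unevenly: the standard deviation (SD) of the difference over genes was 0.25, 0.48, 0.70, 0.29 and 0.37 for E1, E3, E4, E5 and E7 in turn. It averaged 0.42 ± 0.18 (SD, n = 5) in experimental animals and 0.37 ± 0.15 (SD, n = 6) in controls, an exact two-sided permutation test of the animals giving p = 0.628, where the smallest p possible is 0.00216.

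No single gene passed the test in experimental animals, while many more genes leaned to the right than to the left. With limma and Benjamini-Hochberg adjustment at 0.05, 0 of 13624 genes (0%) differed between the sides, the smallest adjusted p being 0.0563. At an unadjusted p under 0.05, 1808 genes (13.3%) were higher and 344 (2.52%) lower on the right. The median difference of all genes was 0.078, and 66% of genes lay above 0. In control animals the same fit gave 0 genes after adjustment and, unadjusted, 209 genes (1.53%) higher and 319 (2.34%) lower on the right, with a median of -0.031. In all 5 experimental pairs, 1514 genes (11.1%) were higher on the right and 366 (2.69%) lower. In all 6 control pairs, 184 genes (1.35%) were higher and 350 (2.57%) lower. The excess of higher genes leaned on E3, whose median difference was 0.26 against 0.012 to 0.081 in the other 4 animals. Without E3, 772 genes were higher and 173 lower at an unadjusted p under 0.05. The lean was weaker when low values were not filtered, with 1777 genes higher and 875 lower at that p. Over all probe sets, the array median was lower on the right in E3 (6.56 against 6.77) and E7 (6.01 against 6.18). It was also lower in E4 (6.13 against 6.15) and E5 (6.08 against 6.13), and higher in E1 (6.54 against 6.51).

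**Figure D1:**
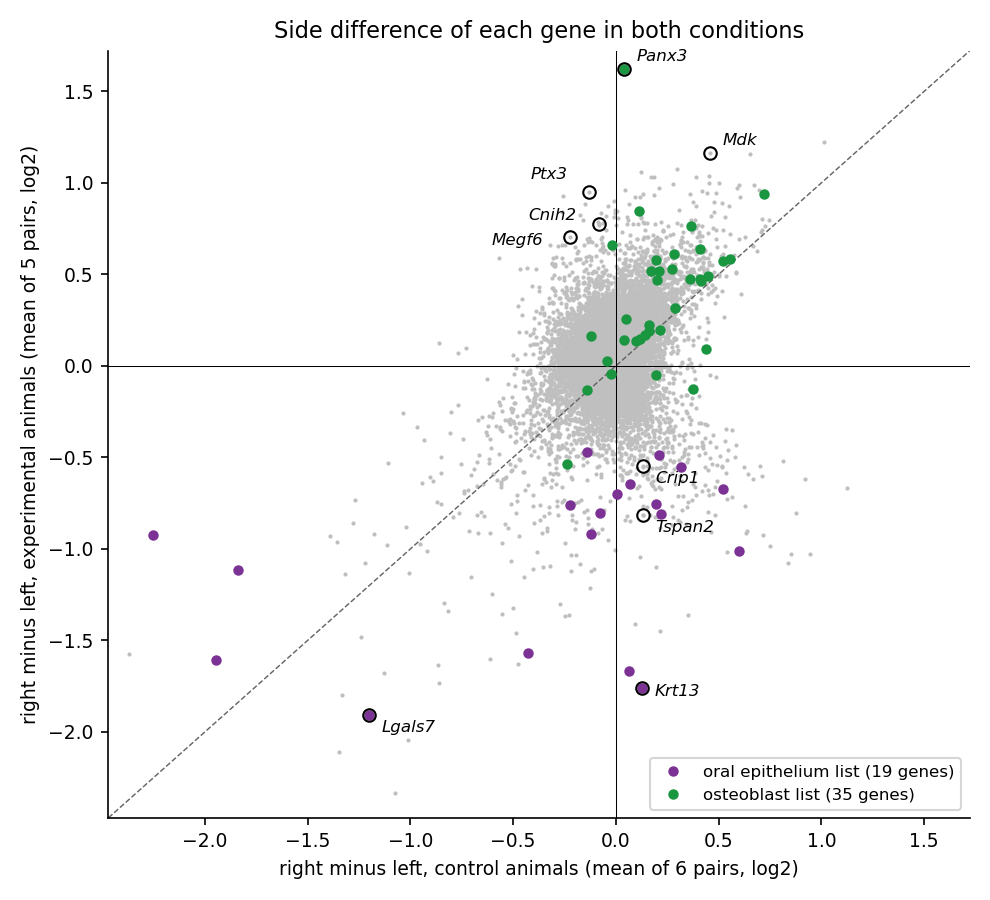
Mean right-left difference of each of the 13624 genes in control animals (horizontal axis, 6 pairs, log2) and experimental animals (vertical axis, 5 pairs, log2). Grey points are genes, green and purple points are members of the osteoblast and oral epithelium lists, open circles mark genes named in the text and the dashed line marks equal differences. Panx3 stands highest at 1.62 in experimental and 0.039 in control animals, and all 19 epithelial genes lie below 0 in experimental animals.

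The gene with the smallest p was Cnih2, which encodes an auxiliary subunit of AMPA-type glutamate receptors. Its right molars read 7.01, 7.22, 6.73, 7.10 and 6.73 for E1, E3, E4, E5 and E7. Its left molars read 6.35, 6.22, 5.89, 6.46 and 6.01 in the same order. Every right array lay above every left array, which held for 46 of the 13624 genes (0.338%). The difference was 0.77 ± 0.10 (standard error, SE; limma adjusted p = 0.0563), a 1.71-fold higher level on the right. In control pairs it ran from -0.34 to 0.22, with 2 of 6 pairs higher on the right.

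Megf6, an EGF-repeat protein, was 0.70 ± 0.11 (SE) higher on the right, with pair differences of 0.62, 1.17, 0.47, 0.47 and 0.80 (order as for Cnih2). Its control pairs lay between -0.48 and 0.040, below every experimental pair. Ptx3, the secreted pattern-recognition protein pentraxin 3, was higher by 0.75, 1.56, 1.26, 0.995 and 0.21 in E1, E3, E4, E5 and E7. Its mean difference was 0.95 ± 0.16 (SE), with controls between -0.38 and 0.30. Tril, an accessory protein of Toll-like receptor 4, was 0.77 ± 0.13 (SE) higher and ranged from 0.55 to 1.08. All 3 had a limma adjusted p of 0.138, as had 6 further right-leaning genes.

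These 6 were Pltp, Cadm1, Prelp, Pcdhb13, Adgrb1 and Kctd12b, each higher on the right in 5 of 5 experimental animals. Pltp, the phospholipid transfer protein, was higher by 0.996 ± 0.17 (SE), and by 0.28 in controls, where 6 of 6 pairs were also higher. Prelp, a leucine-rich proteoglycan that anchors basement membranes to collagen, showed the same side in both conditions: 0.97 ± 0.17 (SE) in experimental and 0.59 in control animals, with 6 of 6 control pairs higher. The adhesion molecules Cadm1 and Pcdhb13 were higher by 0.78 ± 0.14 and 0.46 ± 0.082 (SE). For Pcdhb13, a clustered protocadherin, the 5 pairs lay close together, from 0.32 to 0.52, and every right array again lay above every left one. Adgrb1, a phagocytic receptor for apoptotic cells, was higher by 0.63 ± 0.12 (SE). Kctd12b, a gene of the family of GABA-B receptor auxiliary subunits, was higher by 0.85 ± 0.16 (SE), with 1.32 in E3 and 0.61 to 0.80 in the others.

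Fewer genes leaned to the left. Crip1, a LIM-domain protein, read 6.67, 7.32, 6.67, 6.59 and 6.19 in the right molars of E1, E3, E4, E5 and E7, and 7.02, 7.52, 7.33, 7.48 and 6.81 in their left molars. The right molar was the lower one in each animal, although the 2 sides overlapped in level. The difference was -0.55 ± 0.10 (SE; limma adjusted p = 0.138). No control pair was lower on the right, the lowest control difference being 0.0 and the highest 0.29. Tspan2, a tetraspanin of myelinating cells, was lower by -0.87, -0.22, -0.47, -1.34 and -1.18 in the same order of animals. Its difference was -0.82 ± 0.17 (SE; limma adjusted p = 0.163), and controls ran from -0.45 to 0.51.

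The other left-leaning genes by p differed less. Efemp1, the matrix protein fibulin-3, was at -0.38 ± 0.088 (SE), and its experimental pairs, from -0.68 to -0.19, lay below all control pairs, from -0.17 to 0.053. Tff2, a secreted trefoil peptide, was at -0.43, Prap1 at -0.51 and Bdkrb2, the bradykinin B2 receptor, at -0.32, each lower in 5 of 5 animals. Ddo, which degrades D-aspartate, was at -0.37, Misp, a mitotic spindle-positioning protein, at -0.37 and Abcb1a, a drug efflux pump, at -0.34, also lower in 5 of 5 animals. Wdr38 was at -0.39 and lower in 4 of 5. The limma adjusted p of these 8 genes lay between 0.184 and 0.215. Some of them read near the filter value of 5.81. In experimental molars Abcb1a spanned 5.4 to 6.5, Wdr38 5.2 to 6.6, Prap1 5.3 to 6.7 and Ddo 5.3 to 7.3. Efemp1, Tff2, Bdkrb2 and Misp stayed above 5.81 there. At an unadjusted p under 0.05, 344 genes were lower with this filter and 875 without it. Whether low signal had a part in these differences was not tested. Only 5 genes (0.0367%) had every right array below every left array, among them Lama3, a laminin chain of epithelial basement membranes, at -0.45 ± 0.20 (SE).

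**Figure D2:**
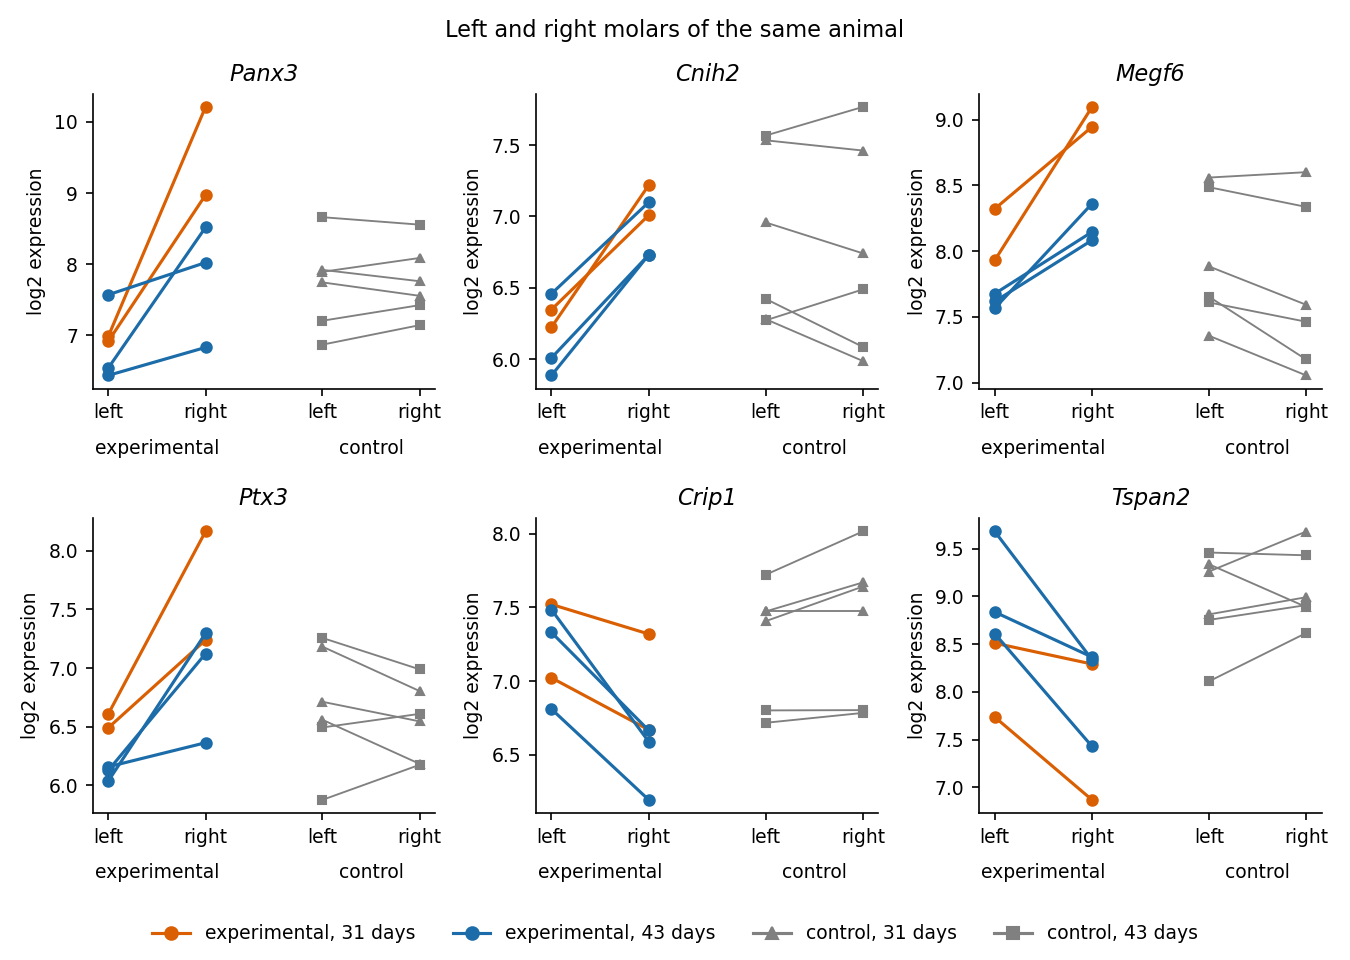
Log2 expression of 6 genes in left and right molars, each line joining the molars of 1 animal. Orange and blue mark experimental animals of 31 and 43 days, grey triangles and squares mark controls of 31 and 43 days. All 5 experimental lines climb from left to right for Panx3, Cnih2, Megf6 and Ptx3 and descend for Crip1 and Tspan2, while control lines go both ways, except for Crip1, where none descends.

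The largest right-leaning mean difference belonged to Panx3, a pannexin channel of osteoblasts, chondrocytes and odontoblasts that passes ATP and releases calcium from the endoplasmic reticulum. It was already known from earlier results of these data. Its right molars read 8.97 (E1), 10.21 (E3), 8.52 (E4), 8.02 (E5) and 6.83 (E7), against 6.92, 6.99, 6.54, 7.57 and 6.44 in the left molars. The right molar of E2, which has no partner here, read 9.42. All 5 pairs were higher on the right, by 2.06, 3.23, 1.98, 0.45 and 0.39. The mean was 1.62 ± 0.31 (SE), or 3.08-fold, with a limma adjusted p of 0.156. Control arrays lay between 6.87 and 8.66 with a median of 7.75, and control differences lay between -0.19 and 0.28.

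The experimental left molars, at 6.44 to 7.57, thus lay in the lower part of the control range or below it, and 3 of the right molars lay within or below it. That range joins the 2 sets of arrays. Higher-set controls lay between 7.76 and 8.66, with E1 and E3 above them on the right and below them on the left. Lower-set controls lay between 6.87 and 7.745. There the right molars of E4 and E5 lay above, the left molar of E5 within, and the left molar of E4 and both molars of E7 below. A fit with the animal as a random block, which also used E2, gave 1.78 ± 0.25 (SE) and a limma adjusted p of 0.00974. That fit weighted the 2 ages equally, whereas the paired fit weighted the animals equally, so the 2 means are not like for like. Without E7, the animal with the smallest difference, the paired fit gave 1.93 with a limma adjusted p of 0.0395, and without E3 it gave 1.22 with 0.703.

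Genes of osteoblasts, osteocytes and cementoblasts leaned to the right in both conditions. Of 39 listed genes, 36 were on the array and 35 passed the filter on low values, with only Kl lost there. In experimental animals 30 of the 35 lay above 0, the median was 0.46 against 0.078 for all genes tested, and 15 were higher and 0 lower at an unadjusted p under 0.05, beside 13.3% and 2.52% of all genes. No member passed after adjustment. In control animals 29 lay above 0 with a median of 0.20 against -0.031, and 7 were higher at an unadjusted p under 0.05, beside 1.53% of all genes. That 7 was 2 without C3, 1 without C5 and 4 without C6. Over all genes the 209 higher in controls were then 115, 117 and 182. The mean level of the list differed by 0.42, 0.73, 0.63, 0.12 and -0.046 from E1 through E7. Controls ran from 0.072 to 0.57 and were above 0 in 6 of 6. The count of 15 was 6 without E3 and 8 without E4.

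Within that list, Sp7, the transcription factor osterix, was 0.64 ± 0.16 (SE) higher on the right in experimental and 0.41 in control animals, with 5 of 5 and 6 of 6 pairs higher. Ifitm5, a membrane protein of mineralizing osteoblasts, differed by 0.76 ± 0.20 (SE) and 0.37. Alpl, the tissue-nonspecific alkaline phosphatase, differed by 0.61 ± 0.23 (SE), with 1.01 to 1.19 in E1, E3 and E4 but 0.20 in E5 and -0.46 in E7. Smpd3, a sphingomyelinase needed for bone mineral, had nearly equal means in experimental (0.58 ± 0.24 SE) and control animals (0.56). Phospho1, a phosphatase that starts mineral formation in matrix vesicles, differed by 0.85 ± 0.22 (SE), with 1.49 in E3, 1.66 in E4 and 0.35 to 0.37 in the other 3. Its control mean was 0.11. Pth1r, the receptor for parathyroid hormone and its related peptide, differed by 0.66 ± 0.26 (SE), running from 1.54 in E3 to -0.71 in E7, against -0.018 in controls. The limma adjusted p of the 6 genes lay between 0.198 and 0.281.

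Promoters of this list were looked up in RefSeq (assembly GRCr8), since several members leaned together, and 21 of its 35 tested genes had one. The RUNX core TGTGGT, on either strand within 250 bases before to 50 after the start, occurred in 4 of the 21 promoters (19.0%), those of Bglap, Runx2, Mepe and Sparc, and in 16.9% of 27457 promoters. The GC box GGGCGG, which the osterix family can bind, occurred in 9 of 21 (42.9%) and in 34.9% of all promoters. Matches of these motifs may overlap. The 250 bases before the start are shown for Phospho1 and Pth1r, the genes that differed by more than 0.6 in experimental animals and by at most 0.11 in controls and had a promoter entry. Capitals mark the GC box on either strand, 3 matches for Phospho1 (chr10:81258560-81258809, plus strand) and 7 for Pth1r (chr8:119595572-119595821, minus strand). A match describes the letters only.
Phospho1: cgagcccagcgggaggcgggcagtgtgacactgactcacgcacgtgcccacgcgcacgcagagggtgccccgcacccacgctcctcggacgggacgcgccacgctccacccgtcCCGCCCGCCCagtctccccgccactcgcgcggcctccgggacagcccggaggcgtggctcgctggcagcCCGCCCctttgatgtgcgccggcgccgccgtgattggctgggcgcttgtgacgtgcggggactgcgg
Pth1r: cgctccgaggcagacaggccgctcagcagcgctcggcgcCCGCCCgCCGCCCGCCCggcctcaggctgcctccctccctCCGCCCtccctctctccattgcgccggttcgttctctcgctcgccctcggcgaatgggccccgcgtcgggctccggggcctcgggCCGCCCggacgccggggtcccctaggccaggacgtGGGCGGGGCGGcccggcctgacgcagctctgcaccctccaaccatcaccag

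Collagen-modifying and secretory genes hydroxylate, fold, cross-link and export collagen. Of 36 listed genes, 32 were on the array and tested, 29 lay above 0 and the median was 0.47. Of the 32, 18 were higher and 0 lower at an unadjusted p under 0.05, beside 13.3% of all genes. P4ha3, a subunit of the prolyl hydroxylase that stabilizes the triple helix, differed by 0.94 ± 0.27 (SE), from 1.997 in E3 to -0.18 in E7. Loxl1, a cross-linking lysyl oxidase, differed by 0.69 ± 0.19 (SE). Crtap, a partner of the prolyl 3-hydroxylases, differed by 0.59 ± 0.14 and Colgalt1, a collagen galactosyltransferase, by 0.47 ± 0.12 (SE), both in 5 of 5 animals. In controls 31 of 32 lay above 0 with a median of 0.26. The list mean was 0.50, 0.90, 0.72 and 0.086 in E1, E3, E4 and E5 and -0.23 in E7. The count of 18 was 11 without E1, 5 without E3 and 6 without E4.

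The collagens themselves are given next. Of 23 fibrillar and network collagens and partners, 20 were tested, 14 lay above 0 with a median of 0.14, and 2 were higher at an unadjusted p under 0.05, near the 13.3% of all genes. These were Col14a1, a collagen of fibril surfaces (0.69 ± 0.25 SE), and Col8a1, a short-chain network collagen (0.39 ± 0.13 SE). The count was 1 without E3, 0 without E4 and 9 without E7, and the median was 0.031 without E4 and 0.32 without E7. Control animals had 19 of 20 above 0 and a median of 0.16. Of 21 tested ligament and tendon genes, 5 were higher and 1 lower at that p, with a median of 0.17. The 5 was 3 without the control C1, C3 or C6. Tnmd differed by 1.15 in E1 and 1.66 in E3 but by -0.098 to 0.31 in the 43-day animals, and Ccn3, a matricellular protein, was the lower one at -0.31 ± 0.13 (SE). Among 30 tested proteases and inhibitors, 6 were higher and 1 lower with a median of 0.070, beside 13.3%, 2.52% and 0.078 for all genes. Mmp16, a membrane-bound metalloproteinase, differed by 0.99 ± 0.26 in 5 of 5 animals, Mmp23 by 0.71 ± 0.24 and Mmp11 by 0.35 ± 0.12, while Mmp10 was at -0.50 ± 0.18 (SE). Leaving out E1, E3, E4 or E7 gave 2, 1, 2 and 9 higher ligament genes and 3, 1, 2 and 11 higher proteases or inhibitors.

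TGF-beta and BMP signals steer matrix synthesis and bone formation, and the list was read beside all genes tested. Of 44 tested of 48 listed, 40 lay above 0 with a median of 0.22, and 14 were higher and 0 lower at an unadjusted p under 0.05. Of all genes, 66% lay above 0 with a median of 0.078, and 13.3% were higher and 2.52% lower. Among ligands, Bmp4 differed by 0.51 ± 0.15 and Tgfb1 by 0.32 ± 0.097 (SE). Both were as large in controls, at 0.59 and 0.39, with 6 of 6 control pairs higher. Ltbp3, which holds latent TGF-beta in the matrix, differed by 0.45 ± 0.14 and Smad4, the shared signal carrier, by 0.29 ± 0.086 (SE). Smad4 was at 0.0084 in controls. Without E3 the count of 14 was 8.

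Of 44 tested Wnt genes, 34 lay above 0 with a median of 0.16, and 8 were higher and 0 lower at that p, beside 66% and 13.3% of all genes. The receptors Fzd8 and Fzd2 differed by 0.43 ± 0.11 and 0.49 ± 0.15, the co-receptor Lrp4 by 0.47 ± 0.15 and the secreted modulator Dkk2 by 0.31 ± 0.086 (SE), each in 5 of 5 animals. Fzd8 and Dkk2 were at -0.00026 and 0.014 in controls. The count of 8 was 5 without E3 and 13 without E7. Of 11 tested hedgehog genes, 4 were higher and 1 lower, with a median of 0.25. Gli3, a transcription factor of the pathway, differed by 0.54 ± 0.13, while Dhh, a ligand of peripheral nerve, was at -0.36 ± 0.13 (SE) and lower in 5 of 5. Without E3, 1 hedgehog gene was higher at that p.

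Of 27 tested IGF, FGF and PDGF genes, 8 were higher and 1 lower at an unadjusted p under 0.05, with a median of 0.20. Of all genes, 13.3% were higher and 2.52% lower, with a median of 0.078. Mdk, the heparin-binding growth factor midkine, was 1.16 ± 0.22 (SE) higher, with 1.08, 1.65, 1.97, 0.87 and 0.25 in E1, E3, E4, E5 and E7. It was also higher in 6 of 6 control pairs, by 0.46 on average. Igf1 differed by 0.72 ± 0.19 and Fgfr3 by 0.49 ± 0.13 (SE), against 0.069 and -0.088 in controls. Igfbp2, which binds insulin-like growth factors, was at -0.80 ± 0.26 (SE), from -1.80 in E4 to 0.13 in E7. The count of 8 was 5 without E3 and 5 without E4. None of the named pathway genes passed the adjusted threshold.

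Smaller lists gave few genes past an unadjusted p of 0.05, beside 13.3% of all genes higher and 2.52% lower. The mineralization list had 4 of 18 higher and 0 lower, including Trpv4, a stretch- and osmosensitive calcium channel, at 0.47 ± 0.14 (SE). The YAP and stretch list had 3 of 18, with Tead2 at 0.45 ± 0.15 and Lats2 at 0.36 ± 0.12, and the Notch list 2 of 15, Notch2 at 0.25 ± 0.10 and its target Hey1 at 0.42 ± 0.19. The parathyroid hormone and RANK list had 1 of 8, Pth1r. There, Csf1, the macrophage growth factor, was at 0.25 ± 0.13 (SE). Connexins and pannexins had only Panx3, and 3 of their 11 tested genes lay above 0. Osteoclast genes had 0 of 10 in either direction and a median of 0.030. Hypoxia and glycolysis genes had 1 of 13, P4ha1 (0.45 ± 0.18), with a median of -0.11, and the unfolded protein list had 1 of 18, Creb3l2 (0.52 ± 0.16). Among early response genes 0 of 19 were higher and 1 lower, Klf6 at -0.31 ± 0.10. Without E3, 2 mineralization, 1 stretch and 0 Notch genes were higher, without E4 2, 3 and 0, and without E7 4 early response genes were.

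**Figure D3:**
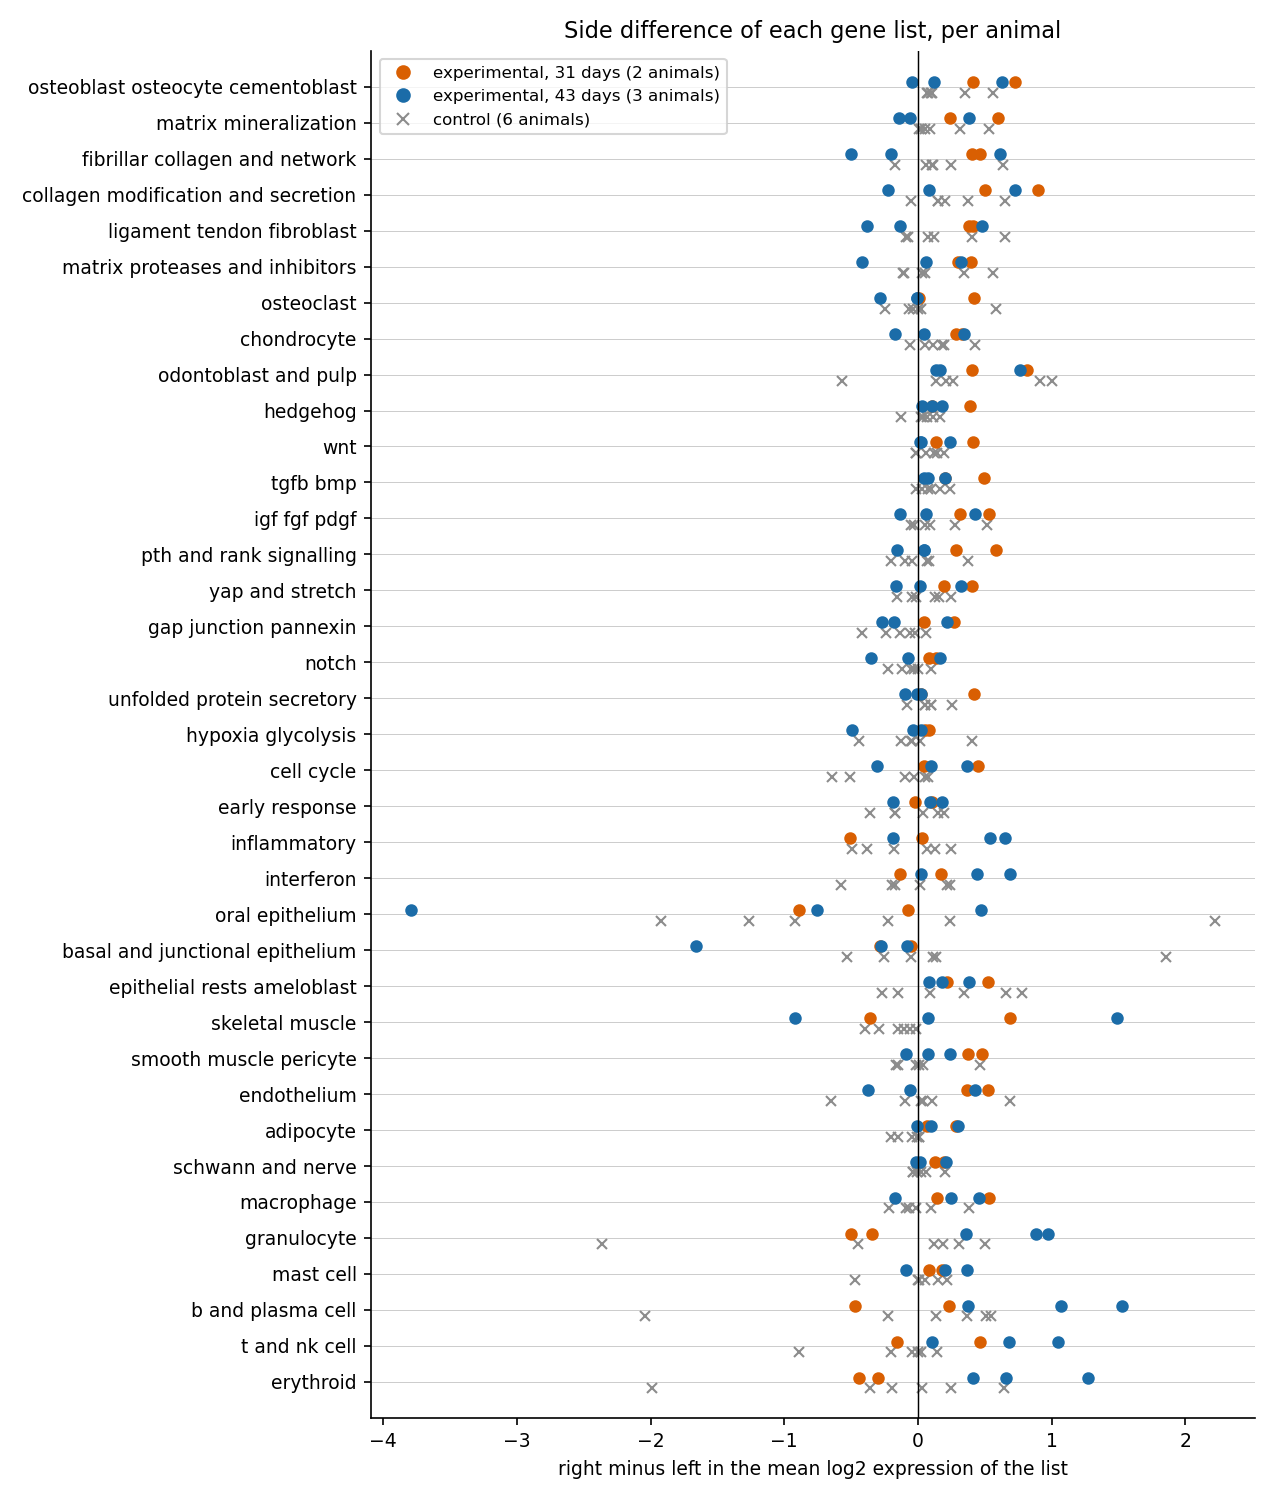
Right-left difference in the mean log2 expression of 37 gene lists (rows) in each animal. Orange and blue points are experimental animals of 31 and 43 days, grey crosses the 6 control animals, and the vertical line marks no difference. Oral epithelium spreads from -3.79 to 0.47 in experimental and from -1.92 to 2.22 in control animals, far wider than the osteoblast list, which spans -0.046 to 0.73 and 0.072 to 0.57.

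The mean of the oral epithelium markers spread more widely between experimental animals than that of any other list. All 19 tested of 26 listed genes lay below 0 in experimental animals, with a median of -0.81, yet 0 of them reached an unadjusted p under 0.05. The list mean differed by -3.79 in E4, -0.89 in E3, -0.75 in E5, -0.072 in E1 and 0.47 in E7. Controls ran from -1.92 to 2.22. Krt13, a keratin of the non-keratinized oral lining, read 13.51 in the left and 7.75 in the right molar of E4, and 12.97 and 13.52 in those of E7. Its mean difference was -1.76 ± 0.88 (SE). Krt4, its partner keratin, was at -1.67 ± 0.86 and Lgals7, an epithelial galectin, at -1.91 ± 0.90 (SE). In the list of basal and junctional epithelium, 1 of 11 was lower at that p, Lama3, and the hemidesmosome integrin Itgb4 was at -0.44 ± 0.21 (SE).

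Epithelial marker RNA differed between sides in some of the pairs with large bone and matrix values, and the cause was not tested. Oral epithelium was at -3.79 in E4, where the osteoblast list was at 0.63 and the collagen-modifying list at 0.72, and at -0.89 in E3, where they were at 0.73 and 0.90. In E7 it was at 0.47 and they at -0.046 and -0.23, and in the control C5 it was at -1.92 and they at 0.57 and 0.65. In the control C2, epithelium at 2.22 stood beside 0.076 and 0.38, and in E1 -0.072 stood beside 0.42 and 0.50. Without E4, the median of the epithelial list was -0.23, that of the osteoblast list 0.27 and that of the collagen-modifying list 0.34. With the epithelial difference as a covariate, the osteoblast median was 0.21 with 9 of 35 higher at an unadjusted p under 0.05. The collagen-modifying median was 0.31 with 7 of 32. Over all genes tested, 1310 were higher at that p with the covariate and 1808 without it, so the count fell beyond these lists too. The median of all genes was 0.089 with the covariate and 0.078 without it. Panx3 was at 1.46 and Cnih2 at 0.73 with the covariate. Of the 98 genes named for the side difference, 28 shrank by more than 1.5 times under that covariate, 1 grew by as much and 0 turned direction. Igfbp2 went from -0.80 to -0.39, Col14a1 from 0.69 to 0.37, Nes from 0.95 to 0.52, Lrp4 from 0.47 to 0.26, Hapln1 from 0.99 to 0.60, Ltbp3 from 0.45 to 0.27 and Phospho1 from 0.85 to 0.56. Cd79b went from 0.81 to 0.25 and Gata1 from 0.50 to 0.10. Krt13 went from -1.76 to -0.32, but it belongs to the list that gave the covariate, so its shrinkage was built in. The 98 genes also hold other named members of that list.

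Other tissues near the root were also read. Their counts stand beside 13.3% of all genes higher at an unadjusted p under 0.05. Of 11 tested odontoblast and pulp genes, 11 lay above 0 with a median of 0.47 in experimental and 0.25 in control animals. Of these, 3 were higher at that p. Nes, an intermediate filament of odontoblasts, differed by 0.95 ± 0.36 in 5 of 5, and Dlx3, a homeobox factor of tooth and bone, by 0.52 ± 0.21 (SE). Of 7 enamel-epithelium genes, 2 were higher. Mmp20, the enamel protease, differed by 1.38 in E1 and E3, 1.30 in E4 and E5 and 0.77 in E7, and by 1.01 on average in controls, which ran from -1.08 to 3.54. Ambn, an enamel matrix protein, differed by 0.73 ± 0.33 (SE). Of 12 cartilage genes, 6 lay above 0 and 6 below, with a median of -0.015. The 2 higher ones at that p were Hapln1 (0.99 ± 0.28) and Chad (0.42 ± 0.14), both in 5 of 5. The part that pulp, enamel epithelium or cartilage had in the bone-list values was not tested. Without E3 or E4, 1 odontoblast gene was higher, and without E7 4 cartilage genes were.

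Vessel, muscle, fat and nerve lists were mixed, and their counts stand beside 13.3% of all genes higher at an unadjusted p under 0.05. Of 9 smooth muscle and pericyte genes, 3 were higher at that p: Mylk, the myosin light chain kinase (0.81 ± 0.18), Kcnj8, a potassium channel of pericytes (0.40 ± 0.15), and Myl9 (0.35 ± 0.13 SE). Of 10 endothelial genes, 10 lay above 0 and 1 was higher, the junction protein Cldn5 at 0.45 ± 0.20 (SE). Among 9 nerve and Schwann cell genes, 2 were higher, Ncam1 (0.74 ± 0.23) and Pmp22 (0.51 ± 0.16), and the median was -0.078. Of 6 tested fat cell genes, 2 were higher, Lpl, the lipoprotein lipase, at 0.49 ± 0.15 and Cfd at 0.39 ± 0.11 (SE). Adipoq, Fabp4 and Lep fell below the filter on low values. Without E7, 4 endothelial genes were higher, and without E1 or E4 1 smooth muscle gene was. Skeletal muscle genes reached 0 of 7. Their mean was higher on the right in E1 by 0.69 and in E7 by 1.49 and lower by -0.92 in E4. Tnnc2, fast troponin C, followed with 0.71, 1.66 and -0.89 in those animals.

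For 3 blood cell lists, the 3 older animals lay above the 2 younger ones. The mean of the B and plasma cell list was higher on the right in E4 (1.53), E5 (1.07) and E7 (0.37), against -0.47 in E1 and 0.24 in E3. Granulocyte genes differed by 0.97, 0.88 and 0.36 at 43 days and by -0.34 and -0.50 at 31 days. Erythroid genes differed by 1.27, 0.66 and 0.41 against -0.44 and -0.30. For granulocyte and erythroid genes all 3 animals of 43 days thus lay above 0 and both of 31 days below it. Control animals of both ages ran from -2.36 to 0.50, -1.99 to 0.64 and, for B cells, -2.04 to 0.55, the lowest each time in C2.

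At 43 days, 8 of 8 B cell genes, 13 of 13 granulocyte genes and 6 of 7 erythroid genes lay above 0, and 6, 2 and 3 of them were higher at an unadjusted p under 0.05. Of all genes at that age, 55.9% lay above 0 and 5.01% were higher. Without E4 the counts were 0, 1 and 0, without E5 0, 0 and 1, and without the control C2 8, 9 and 5. Over all genes at that age the 683 higher were 201 without E4, 395 without E5 and 986 without C2. At 31 days, 4 of 8, 3 of 13 and 1 of 7 lay above 0. Ms4a1, the B cell surface protein CD20, differed by 2.29 in E4 and 1.29 in E5 but by -0.48 in E1. Cd79b, of the B cell receptor, differed by 1.29 and Mzb1, of plasma cells, by 0.68 as means of the 43-day animals, against 0.088 and 0.063 at 31 days. Elane, neutrophil elastase, was at 0.92 against 0.15 and Gata1, an erythroid and mast cell transcription factor, at 0.90 against -0.099. With the epithelial covariate the medians over both ages were 0.18 for B cell, -0.11 for granulocyte and -0.021 for erythroid genes, compared with 0.55, 0.33 and 0.50 without it. Whether marrow or blood carried with the root had a part in these values was not tested.

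Other immune lists are given over both ages. Of 14 macrophage genes, 4 were higher and 1 lower at an unadjusted p under 0.05, beside 13.3% and 2.52% of all genes, with a median of 0.27. The 4 was 9 without E7 and 2 without E4. Aif1, an actin-binding protein of macrophages, differed by 0.45 ± 0.13 and Cd74, the class II invariant chain, by 0.51 ± 0.16 (SE). The lower one was Cd14. Of 11 T and NK cell genes on the array, 5 were tested, as Cd3e, Cd3d, Cd3g, Cd2, Gzmb and Klrd1 fell below the filter on low values. Of the 5, 2 were higher, Cd4 (0.64 ± 0.19) and Lck (0.42 ± 0.12 SE). Of 5 tested mast cell genes 1 was higher, the protease Cpa3 (0.54 ± 0.16), while Mcpt1, Mcpt4, Fcer1a and Ms4a2 fell below the filter. All 16 tested interferon genes lay above 0 with a median of 0.21, and 2 were higher at that p: Mx1, an antiviral GTPase, at 0.51 ± 0.17 and Ifit2, an interferon-induced RNA-binding protein, at 0.38 ± 0.16 (SE). Irf7, a factor that switches on interferon genes, was at 0.48 ± 0.24 (SE) and did not reach it. The interferon count was 7 without E1, 1 without E3 or E5, 0 without E4 and 4 without the control C2. Of 16 inflammatory genes, Ptx3 was higher and the chemokine Ccl2 lower (-0.38 ± 0.14 SE).

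**Figure D4:**
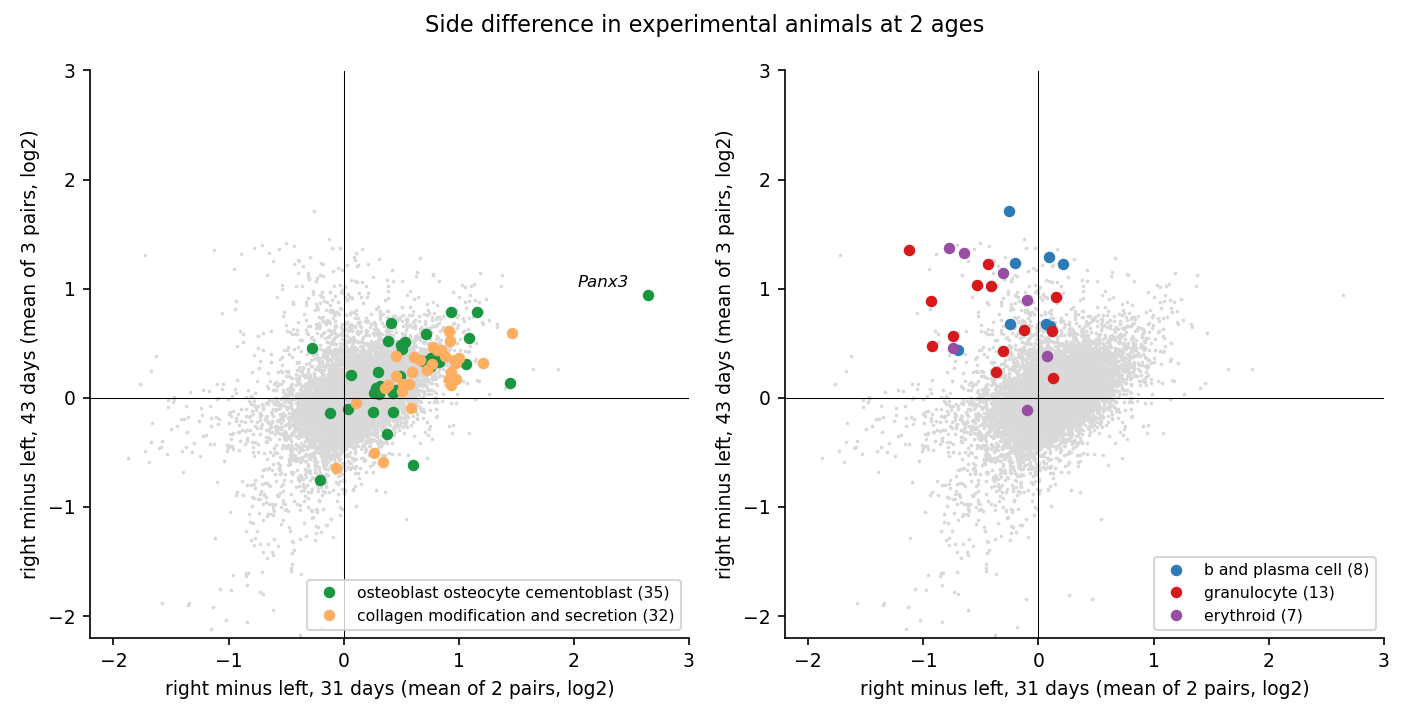
Mean right-left difference of each gene in experimental animals at 31 days (horizontal axis, 2 pairs, log2) and 43 days (vertical axis, 3 pairs, log2). Grey points are all genes tested, 9 of which fall outside the axes, and coloured points are list members, with bone and collagen lists on the left and blood cell lists on the right. Most bone and collagen genes lie to the right of 0 and are larger at 31 days, whereas nearly all blood cell genes lie above 0 at 43 days and mostly to the left of 0 at 31 days.

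The side difference was also fitted at each age. With 2 pairs at 31 days, 0 genes passed after adjustment (smallest limma adjusted p 0.107) and, unadjusted, 1277 genes (9.37%) were higher and 202 (1.48%) lower on the right. With 3 pairs at 43 days, 0 passed (smallest 0.477), and 683 (5.01%) were higher and 265 (1.95%) lower. The 31-day counts rested on E3: without it 81 genes were higher and 30 lower, below the 43-day counts, and without E1 2511 and 453. At 43 days 201 were higher and 220 lower without E4, 395 and 212 without E5, and 1005 and 755 without E7. Panx3 differed by 2.64 ± 0.36 (SE; limma adjusted p = 0.107), or 6.25-fold, at 31 days and by 0.94 ± 0.29 (SE; 0.706), or 1.92-fold, at 43 days. Ostn, the peptide osteocrin, differed by 1.64 and 0.26, Tnmd by 1.41 and 0.094 and Pth1r by 1.45 and 0.13. The collagen-modifying list had medians of 0.75 and 0.25, with 21 and 2 of 32 higher at an unadjusted p under 0.05. The 21 was 14 without E1 and 1 without E3, and the 2 was 0 without E4, 1 without E5 and 11 without E7. The fibrillar collagen list had 0.39 and -0.016.

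The 43-day leaning genes included RT1-Ba, a class II histocompatibility chain, at 1.02 against 0.39 at 31 days, and Themis2, a signalling adaptor of B cells and macrophages, at 0.96 against 0.14. Cav1, the caveolae protein, was at -0.65 against 0.055. The difference between the ages was tested with 2 against 3 pairs: 0 genes passed, the smallest limma adjusted p being 0.97, and 157 were higher and 346 lower at 43 days at an unadjusted p under 0.05. No gene or list is therefore shown to differ between the ages. Tspan17, a tetraspanin, was at 0.80 and -0.18, Samt2 at -0.83 and 0.075 and Rit2, a small GTPase of neurons, at -0.53 and 0.37.

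Whether the side difference of experimental animals differed from that of controls was tested directly. After adjustment 0 genes passed, the smallest limma adjusted p being 0.221, for Cnih2 and Megf6, whose difference of differences was 0.86 ± 0.14 and 0.93 ± 0.14 (SE). At an unadjusted p under 0.05, 716 genes (5.26%) were more right-leaning in experimental animals and 238 (1.75%) less. The 5 experimental differences all lay above the 6 control differences for 79 genes (0.58%) and all below for 18 (0.132%). Among the genes named here the first held for Cnih2, Megf6, Tril, Pcdhb13, Panx3, Cfd and Lck, and the second for Crip1 and Efemp1. Panx3 was more right-leaning by 1.58, Ptx3 by 1.08 and Pak1, a kinase of the cytoskeleton, by 0.81, all with a limma adjusted p of 0.616.

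List values were set between the conditions without a test of any list. The median difference of differences was 0.066 for the osteoblast list, 0.18 for the collagen-modifying list and 0.11 for the TGF-beta and BMP list, beside 0.117 for all genes. The lists farthest from it were erythroid (0.73, 7 of 7 above 0), B cell (0.68, 8 of 8) and granulocyte (0.51, 13 of 13), and oral epithelium (-0.73, 3 of 19) and basal and junctional epithelium (-0.65, 0 of 11). Of 24 tested cell cycle genes, 20 lay above 0 in experimental animals (median 0.11) and 0 in controls (median -0.19). For 23 of 24 the experimental value was the higher one, with a median of 0.33, and 5 did so at an unadjusted p under 0.05, beside 5.26% of all genes. That 5 was 13 without E4, 8 without C1, 3 without E5, 2 without E7, C2 or C5 and 1 without E3. Over all genes the 716 were 903 without E4, 820 without C1, 681 without E5 and 802 without E7. They were 447 without C2, 667 without C5 and 339 without E3. Tyms, the thymidylate synthase, differed by 0.46 in experimental and -0.11 in control animals, and Mcm2, a replication helicase subunit, by 0.25 and -0.19. The list mean per animal was 0.043, 0.45, -0.31, 0.098 and 0.37 in E1, E3, E4, E5 and E7. It lay between -0.64 and 0.074 in controls, with C2 and C5 at -0.64 and -0.51, so the animals overlapped.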

How the data were processed

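Expression was measured on Affymetrix whole-transcript arrays of ligament RNA, 200 ng per sample per the labels' protocols. The deposited values are log2 expression per probe set, for which the submitters' processing notes name RMA and Partek without versions, as the authors' tools. RMA corrects background, normalizes arrays and sums probes. Arrays have no read depth, and their number limits precision. Of 36685 probe sets, 18511 have 1 gene symbol, 575 have several and 17599 have none listed. Entrez identifiers of 18394 probe sets matched RefSeq (GRCr8) and changed 0 symbols. The probe set with the highest mean stood for a gene, and genes with a mean below the 25th percentile (5.81) were left out, leaving 13624.

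The right minus left difference of each of the 11 animals with both molars (22 arrays) was fitted with limma 3.58.1 in R 4.3.3, with a mean per condition, or per condition and age, and p-values adjusted by Benjamini-Hochberg over all genes (threshold 0.05). The fits were checked on simulated data. SE values come from these fits, so all pairs share 1 spread. Exact sign-flip tests cannot go below 0.0625 with 5 pairs and are not quoted. The numeral in the titles pairs the molars. Deviations from group means correlated within 11 pairs from -0.425 to 0.753 (median 0.228, 8 over 0.1), against a median of -0.0055 between animals. That nothing else in the labels ties the arrays to animals limits what the p-values measure.

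The 38 gene lists, the comparison and Panx3 were chosen with earlier results of these data known. Salivary gland genes had 0 tested. Genes were named by a rule: the 10 with the smallest p per direction, up to 4 per list by p, Panx3, and the 5 with the smallest p of each other comparison, without placeholder loci and olfactory or vomeronasal receptors. Tests of the alternatives covered filters, quantile normalization, probe set choice, the animal block, variance priors, weights, the set of arrays, epithelial marker RNA and each animal left out.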

Additional observations from a re-analysis of the deposited data

Results flagged for a closer look

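Among 98 genes and 37 lists examined for an animal standing apart from the other experimental animals, and the median over genes beside them, 6 values stood out, where chance gives about 1 in 20. Kctd12b differed by 1.32 in E3, the next highest animal being at 0.80. Mmp20 differed by 0.77 in E7 and by 1.30 to 1.38 in the others. The unfolded protein list differed by 0.42 in E3, the next being 0.026. The hypoxia and glycolysis list was at -0.50 in E4, the next being -0.038. The basal and junctional epithelium list was at -1.66 in E4, the next being -0.29. The median over all genes was 0.26 in E3, the next being 0.081.

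In 3 of the named genes every animal of a group moved one way and every animal of another the opposite way. How many of all genes do so was not counted. The ages were compared only in genes named for a small p between the ages. Rit2 was among them, so its split is not separate support. Cfd, complement factor D, was higher on the right in 5 of 5 experimental animals and lower in 6 of 6 controls, a difference of 0.61. Lck, a T cell kinase, did the same with a difference of 0.72. The limma adjusted p of both differences was 0.616. Rit2 was lower on the right in both experimental animals of 31 days and higher in all 3 of 43 days, a difference of 0.91 that did not pass the limma test either.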

How the results depend on the processing

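Counts of genes past the adjusted threshold were compared with the 0 of the paired fit. In experimental animals 1 gene (Panx3) passed with the animal as a random replicate block, 27 with array weights (24 higher, 3 lower, among them Crip1 and Tspan2) and 0 to 57 when 1 animal was left out. The 57 came without E7 (55 higher, 2 lower), and 18 of them also passed with array weights. Without the replicate block 0 passed, 449 reached an unadjusted p under 0.05 and the smallest limma adjusted p was 0.931, with 4 osteoblast and 3 collagen-modifying genes higher at the unadjusted p. At 31 days 1 gene, Panx3, passed with the random replicate block (0.0159), with the epithelial covariate (0.00617) and without E4 (0.00603), which left a range of 0 to 1 when animals were left out. Between conditions 1 gene, an olfactory receptor, passed with the set of arrays as a term. Between ages 0 to 2 passed when animals were left out, the 2 being Defa5 and Defa11 without C2. The causes were not tested. Without the filter on low values the unadjusted split was 1777 higher and 875 lower, and with a filter at the 50th percentile 1525 and 76. Of 2781 values of named genes under the alternatives, 2753 kept direction and side of the threshold, 28 newly passed it and 0 turned direction. Of the list medians, 841 moved by less than the spread between animals and 9 by more, in the chondrocyte, hypoxia, adipocyte and nerve lists. Several alternatives leave an experimental difference or list median unchanged by construction. They are a control animal left out, a single condition fitted alone, no replicate block, other variance priors and no filter. Their rows add to the counts of values that kept direction and of medians that moved little.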
